A study of Mus musculus with 4 samples.

Results

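Oxidative phosphorylation is carried out in the inner mitochondrial membrane by 5 protein complexes. Complexes I to IV pass electrons from NADH and succinate to oxygen and 3 of them pump protons, and complex V, the ATP synthase, uses the proton gradient to make ATP. Most of their subunits are encoded in the nucleus and imported, while a small core of complexes I, III, IV and V is encoded by mitochondrial DNA, so that assembly joins the products of both genomes. In the epidermis, keratinocytes of the basal layer divide and then differentiate outward into the cornified layer, and they draw on both glycolysis and respiration.

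The genes described here were the nuclear genes of the 5 complexes, chosen by name: symbols starting with Nduf, Uqcr or Atp5, Sdha to Sdhd, Cyc1, and the Cox4 to Cox8 genes. Names ending in -ps and genes of the mitochondrial chromosome were left out. This gave 99 gene identifiers of the 54752 in each expression table. Of these, 77 were structural subunits, with 36 in complex I, 4 in complex II, 9 in complex III, 11 in complex IV and 17 in complex V. Complex V held 2 identifiers for Atp5o. Another 8 were assembly factors of complex I (the Ndufaf genes), and 9 were paralogues of subunits. A further 4 were annotated as processed pseudogenes (Ndufa11b, Ndufb4c, Ndufs6b and Cox6c2), and 1, Atp5s, shares the prefix but is not a structural subunit. In the 95 protein-coding identifiers, 90 reached an FPKM above 0.5 in at least 1 library and entered the test. The 5 that did not were Cox4i2, Cox6a2, Cox7b2, Cox8b and Cox8c.

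Total RNA from the epidermis of newborn (P0) C57BL/6 mice was sequenced in 4 libraries, each from a different pup. The Skiv2l fl/fl K14-Cre group (n = 2) carries loxP-flanked alleles of Skiv2l and a Cre recombinase under the keratin 14 promoter, which is active in basal keratinocytes and inherited by their daughters, so other cells of the tissue keep the gene. Skiv2l encodes the helicase of the cytoplasmic SKI complex, which feeds mRNA to the RNA exosome. The Skiv2l ctl group (n = 2) pools littermates described in the study's methods as fl/fl or fl/+ without Cre, or fl/+ with K14-Cre, and which of these each control pup was is not given in the sources used here. The values are FPKM (fragments per kilobase of transcript, scaled to the library's depth), so levels of different genes are per length.

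The libraries covered between 5.843 and 6.274 aligned gigabases. Skiv2l itself had an FPKM of 19.3 and 19.1 in the 2 ctl libraries and 10.8 and 8.55 in the 2 fl/fl K14-Cre libraries, and its log2 fold change was -0.92 (SE 0.12; limma, adjusted p = 0.00368). The tissue label held: Krt5, Krt14, Krt1, Krt10 and Flg were between 1736 and 13157 FPKM. Among the keratinocyte markers Krt14 was called higher, and Krt15, Krt1 and Lor were called lower. Krt5, Itga6, Col17a1, Krt10, Flg and Dsg1a were not called. Krt15 had 461.6 and 428.0 in ctl against 92.1 and 155.0 in fl/fl K14-Cre. The basal markers summed to 4558.7 and 4701.9 against 9575.7 and 9580.7. In that list Krt14 alone rose, at 1736 and 1812 against 7381 and 7312. Krt5 had 2003 and 2075 against 1761 and 1759, so the sum does not describe the other basal markers. The suprabasal markers summed to 27164.8 and 28192.5 against 18817.3 and 21851.7. All 8 skeletal muscle markers and 3 of 4 endothelial markers stayed under 0.5 FPKM, and 3 of 4 brown fat markers (Ucp1, Adipoq and Plin1) were at most 0.359. The fourth, Cidea, a lipid droplet gene, was called higher, at 0.814 and 1.18 FPKM in ctl and 7.71 and 5.80 in fl/fl K14-Cre, and it moved the sum of that list from 1.09 and 1.27 to 7.81 and 6.16. The summed level of 6 dermal fibroblast markers was 61.3 and 69.0 in ctl and 21.9 and 25.0 in fl/fl K14-Cre, most of it Dcn. Erythroid markers summed to 95.7 and 88.8 against 43.8 and 56.7, and leukocyte markers to 18.5 and 26.5 against 10.5 and 9.65, while 4 melanocyte markers overlapped between the groups (45.3 and 51.8 against 48.1 and 60.9). Their part in the differences below was not tested. Krt14 took 0.482% and 0.493% of the summed FPKM in ctl and 1.98% and 1.93% in fl/fl K14-Cre. In tissue RNA, fewer cells of a type and less RNA per cell cannot be told apart.

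Nuclear respiratory genes are known for short promoter elements bound by NRF1, by ETS-family factors such as GABP, and by YY1. The 250 bases before the RefSeq transcription start (GRCm38.p6) are shown for 4 members that span the results. Ndufb4 of complex I and Atp5g2 of complex V had a mean FPKM that changed by -37.9% and -32.1%. Sdhd of complex II was called in neither direction, and Ndufa4 of complex IV was the 1 member called higher. Capitals mark the NRF1 letters CGCANGCG and the ETS letters CCGGAAG on either strand. The windows are chr16:37654369-37654618 for Ndufb4, chr15:102671048-102671297 for Atp5g2, chr9:50603850-50604099 for Sdhd and chr6:11907451-11907700 for Ndufa4, all on the minus strand.
Ndufb4: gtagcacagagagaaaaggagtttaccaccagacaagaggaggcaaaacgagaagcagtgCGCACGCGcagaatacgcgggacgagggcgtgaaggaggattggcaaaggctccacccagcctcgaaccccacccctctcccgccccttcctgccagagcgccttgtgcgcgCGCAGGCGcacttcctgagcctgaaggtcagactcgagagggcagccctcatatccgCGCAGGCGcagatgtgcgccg
Atp5g2: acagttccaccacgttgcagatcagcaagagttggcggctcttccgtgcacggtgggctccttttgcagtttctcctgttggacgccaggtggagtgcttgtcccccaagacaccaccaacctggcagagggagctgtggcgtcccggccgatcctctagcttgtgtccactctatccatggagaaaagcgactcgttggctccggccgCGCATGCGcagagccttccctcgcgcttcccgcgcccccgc
Sdhd: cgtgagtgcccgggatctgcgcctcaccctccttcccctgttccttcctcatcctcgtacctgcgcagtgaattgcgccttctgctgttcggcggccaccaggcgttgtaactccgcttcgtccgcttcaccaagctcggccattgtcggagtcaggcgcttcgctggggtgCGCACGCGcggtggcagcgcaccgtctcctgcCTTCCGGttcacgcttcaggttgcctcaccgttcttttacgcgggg
Ndufa4: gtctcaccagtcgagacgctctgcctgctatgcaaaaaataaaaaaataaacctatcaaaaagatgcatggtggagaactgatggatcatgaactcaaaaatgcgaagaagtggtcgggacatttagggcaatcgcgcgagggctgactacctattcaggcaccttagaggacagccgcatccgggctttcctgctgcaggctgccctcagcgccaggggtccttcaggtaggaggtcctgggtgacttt

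Ndufb4 holds the NRF1 letters at 3 places, of which the nearest starts 21 bases before the start, and Atp5g2 holds them once, 41 bases before it, in a form that reads as a match on both strands. Sdhd holds both motifs, at 78 and 46 bases. The Ndufa4 window holds neither. RefSeq promoters of 300 bases (250 before and 50 after the start) were matched by symbol for 74 of 98 member symbols. The NRF1 letters were in 28 of the 74 (37.8%) and in 9.22% of all 27025 symbols with a promoter, the ETS letters in 18 (24.3%) against 9.93%, and the YY1 letters AAGATGGC in 10 (13.5%) against 3.19%. The Sp1 letters GGGCGG, common in GC-rich promoters, were in 44.6% against 38.2%. The median GC content was 58.3% in the members' promoters and 52.8% in all, and the shares were not matched for it. Members with the NRF1 letters had a median log2 fold change of -0.29 over 28 tested, with 13 called lower. The 44 without them had a median of -0.30, with 19 called lower.

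Between the genotypes, 36 of the 90 tested members were called lower with Skiv2l deleted and 1, Ndufa4, was called higher (limma on log2(FPKM + 1), Benjamini-Hochberg over all 13609 tested genes, adjusted p under 0.05). The calls took in 40% of the members as lower and 1.11% as higher. The background was 25.4% of all tested genes called lower and 8.99% called higher. Many members are abundant, and in the 3132 genes with a mean FPKM above 20 the shares were 27.5% and 15.8%, against 39.6% called lower in the 53 members of that level. Above the members' own median level, 27.4% of all genes and 40% of the members were called lower. The median log2 fold change was -0.27 over the members and -0.20 over all tested genes. At an unadjusted p under 0.05, 56 members were lower (62.2%, background 35.7%) and Ndufa4 was again the 1 that was higher (1.11%, background 11.9%), so each complex without a member called higher had none by that measure either. Both fl/fl K14-Cre libraries lay below both ctl libraries for 73 of 90 members (81.1%, background 55.3%) and above both for 1 (1.11%, background 18.2%).

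The number of members called changed with the scaling. When the libraries were scaled to equal medians over the tested genes, the median of the members moved to -0.07 and 62 of 90 stayed below 0. Over all tested genes the median was then -0.03, with 7252 of 13609 below 0. In that setting 7 members were called lower (7.78%) beside a background of 11.9% lower and 13.9% higher. Under quantile normalization 23 were called lower (25.6%), with 14.1% of all genes lower and 12.4% higher. Ndufa4 was called higher under both. The 7 called lower under median scaling were all called lower on FPKM as deposited too: Ndufa3, Ndufb4, Ndufaf3, Cox6b2, Cox7a2, Atp5g2 and Atp5j2. Leaving out 1 control reduced the calls to 3 lower without ctl replicate 1 (Atp5g2, Atp5j and Cox7a2) and to 1 without ctl replicate 2 (Cox6b2), while the median stayed at -0.29 and -0.28. These were 3.33% and 1.11% of the members, below the background of 5.92% and 5.95% of all tested genes called lower in the same fits, in place of 25.4% with all libraries.

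**Figure D1:**
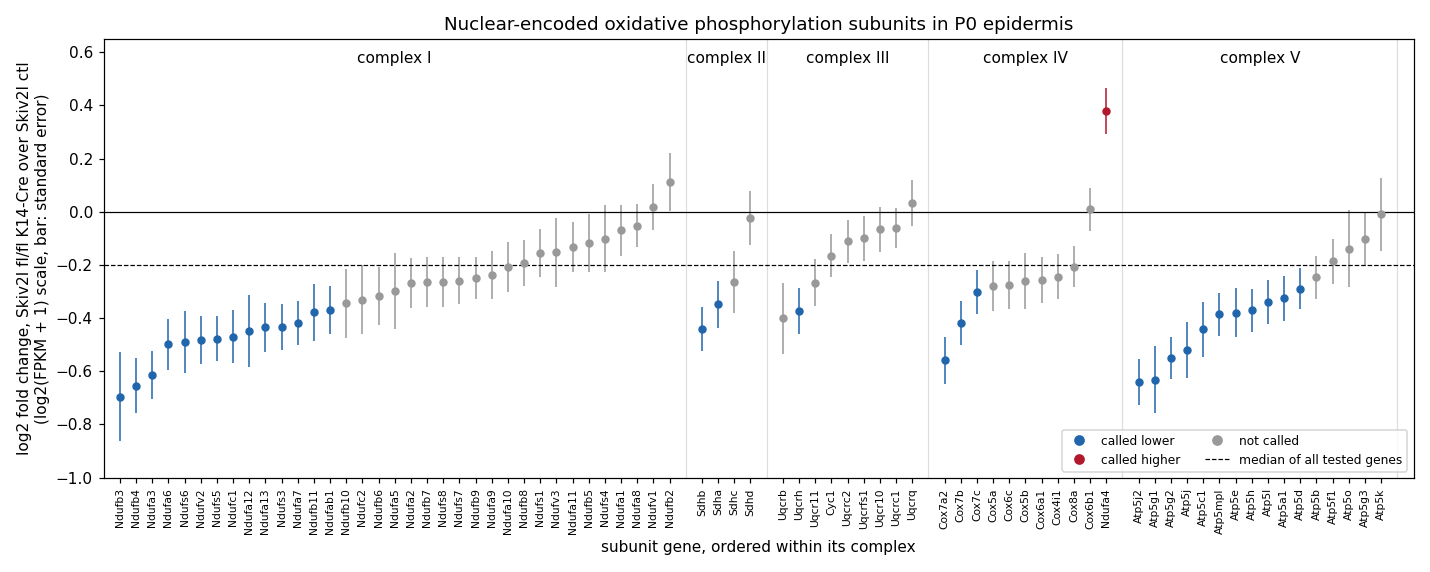
Log2 fold change of each subunit gene (y axis, log2(FPKM + 1) scale, Skiv2l fl/fl K14-Cre over Skiv2l ctl, bar: standard error), ordered within its complex (x axis) and colored by call; the Atp5o identifier of low level and 1 complex I subunit are left out. Most points lie below 0 and around or below the dashed median of all tested genes, -0.20; complex III lies mostly above that line, and Ndufa4 alone is called higher.

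Summed over its subunits, each complex was lower in both fl/fl K14-Cre libraries than in both ctl libraries on the FPKM scale, with changes from -9.33% to -20.6%. These sums are given as descriptions with no test; the smallest two-sided p of an exact permutation test of 2 against 2 is 0.333. Complex I summed to 813 and 847 FPKM in ctl and to 662 and 686 in fl/fl K14-Cre, a change of -18.8%. Complex II summed to 77.4 and 81.6 against 62.8 and 63.4, a change of -20.6%. Complex III summed to 403 and 412 against 372 and 367, a change of -9.33%. Complex IV summed to 668 and 670 against 575 and 608, a change of -11.6%. Complex V, the most abundant, summed to 1291 and 1355 against 1042 and 1070, a change of -20.1%. With median scaling complexes I, II and V kept their direction and complexes III and IV turned to 5.11% and 2.53% above ctl.

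Ratios within a library do not depend on a scaling by 1 factor per library, but quantile normalization can change them. The ratios here were taken on FPKM as deposited. Complex III, the denominator, had the smallest change of its sum (-9.33%). With that denominator the mean ratios of the other complexes fall by construction. Complex I over complex III was 2.02 and 2.05 in ctl and 1.78 and 1.87 in fl/fl K14-Cre. Complex II over complex III was 0.192 and 0.198 against 0.169 and 0.173. Complex V over complex III was 3.20 and 3.29 against 2.80 and 2.92. In these 3 ratios the groups did not overlap, and the transcripts of complex III took up 13.7% and 13.1% of all subunit FPKM in fl/fl K14-Cre against 12.4% and 12.2% in ctl. Complex IV over complex III overlapped, at 1.66 and 1.63 against 1.54 and 1.66.

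**Figure D2:**
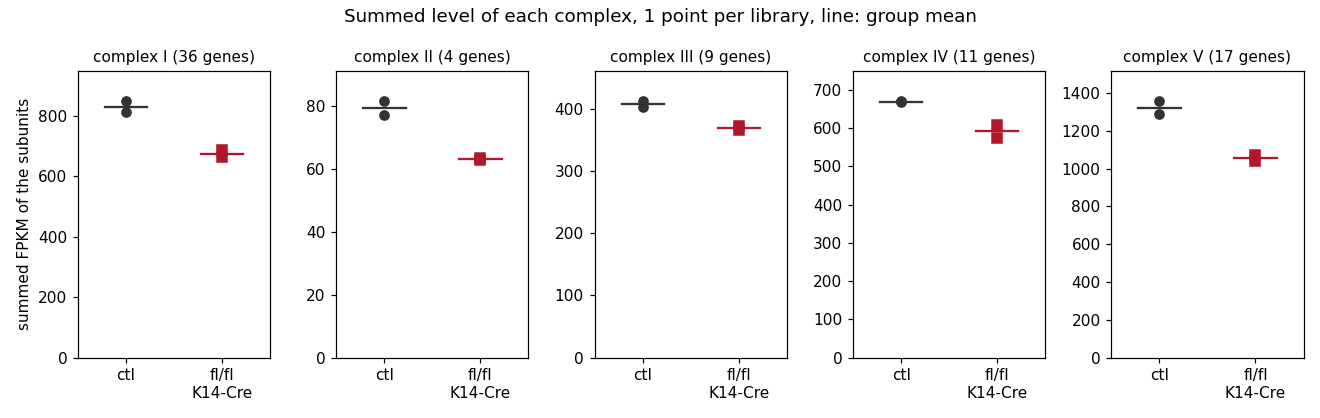
Summed FPKM of the subunits of each complex (y axis, starting at 0) in each library, circles for Skiv2l ctl and squares for Skiv2l fl/fl K14-Cre, with the group mean as a line. Both squares lie below both circles in all 5 panels, by the smallest share in complex III (-9.33%) and by the largest in complex II (-20.6%).

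Complex I oxidizes NADH. It has a matrix arm that carries the flavin and iron-sulfur centers and a membrane arm whose pumping core is encoded by mitochondrial DNA. Of its 36 nuclear subunits, 14 were called lower and none higher (median log2 fold change -0.28). At an unadjusted p under 0.05, 23 were lower (background 35.7%). Under median scaling 2 were called lower (background 11.9%). Of all tested genes 25.4% were called lower and 8.99% higher, which is the background for the counts of subunits and assembly factors below. In ctl epidermis the subunit levels ranged from 3.49 FPKM for Ndufa5 to 59.0 for Ndufa7, with a median of 21.4. Ndufa7 had 58.7 and 59.3 FPKM in ctl and 42.2 and 45.6 in fl/fl K14-Cre (log2 fold change -0.42, SE 0.08, adjusted p = 0.0129).

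The 7 nuclear core subunits of the matrix arm did not move as 1 block. Ndufv1, which binds NADH and the flavin, had 21.9 and 23.0 FPKM in ctl and 23.2 and 22.3 in fl/fl K14-Cre. Its groups overlapped, and its log2 fold change was 0.02 (SE 0.09, adjusted p = 0.885). Ndufv2, its iron-sulfur partner, fell from 19.8 and 20.96 to 13.8 and 14.8 (log2 fold change -0.48, SE 0.09, adjusted p = 0.0113). The ratio of Ndufv2 to Ndufv1 was 0.906 and 0.912 in ctl and 0.597 and 0.664 in fl/fl K14-Cre; this and the other pairs of genes set in a ratio were chosen after their values were seen. Ndufs3, another core subunit, fell from 33.6 and 36.3 to 25.3 and 25.9 (log2 fold change -0.43, SE 0.09, adjusted p = 0.0129). Ndufs1, the large iron-sulfur subunit, had 20.2 and 21.7 against 18.3 and 19.1 and was not called (adjusted p = 0.219). Ndufs7 and Ndufs8 were not called either, with log2 fold changes of -0.26 each.

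Of the 9 accessory subunits of the matrix arm, 4 were called lower: Ndufa6, Ndufa7, Ndufa12 and Ndufs6. Of the 19 accessory subunits of the membrane arm, 7 were called lower. The acyl carrier Ndufab1, which sits in both arms, was lower too (log2 fold change -0.37, SE 0.09, adjusted p = 0.0251). Ndufb3 had the lowest log2 fold change of the complex I subunits, with 9.52 and 10.8 FPKM in ctl and 4.88 and 7.01 in fl/fl K14-Cre (-0.70, SE 0.17, adjusted p = 0.0234). Ndufb4 went from 24.1 and 22.5 to 15.5 and 13.5 (-0.65, SE 0.10, adjusted p = 0.00589), and Ndufa3 from 28.1 and 30.1 to 19.3 and 18.0 (-0.62, SE 0.09, adjusted p = 0.00484). In all 3 both fl/fl K14-Cre libraries lay below both ctl libraries, as in 55.3% of all tested genes. Ndufb4 shares 17.2% of its 75-base stretches with other transcripts, chiefly the pseudogene Ndufb4c, whose own FPKM was 7.24 and 6.58 against 4.68 and 3.88. Exons of Ndufa3 overlap those of Tfpt on the other strand. At the other end, Ndufb2 had 10.99 and 12.98 FPKM in ctl and 12.9 and 13.1 in fl/fl K14-Cre (0.11, SE 0.11, adjusted p = 0.441), and its exons overlap those of 3 other genes, Braf among them.

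The 8 Ndufaf genes, which help build complex I and do not stay in it, were expressed at far lower levels than the subunits (median 3.76 FPKM in ctl, against 21.4). Ndufaf1, Ndufaf3 and Ndufaf6 were called lower and none was called higher. Ndufaf3 had the lowest log2 fold change of all members, with 4.69 and 3.89 FPKM in ctl and 2.49 and 1.57 in fl/fl K14-Cre (-0.82, SE 0.18, adjusted p = 0.0188). Its exons overlap those of Impdh2. Ndufaf4 overlapped between the groups, at 3.43 and 2.17 against 2.36 and 2.40. A wider list of 9 other complex I assembly factors had 3 called lower and none higher. Acad9, a flavoprotein of that list, fell from 61.1 and 60.2 to 44.1 and 41.1 (log2 fold change -0.50, SE 0.08, adjusted p = 0.00692), while Tmem186 had the highest value of the list and was not called (-0.09, adjusted p = 0.672).

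Complex II, the succinate dehydrogenase, is the 1 complex built only from nuclear genes and also a step of the citric acid cycle. Both subunits of its catalytic head were called lower and neither subunit of its membrane anchor was called. Sdha, the flavoprotein, had 25.2 and 26.8 FPKM in ctl and 19.7 and 20.7 in fl/fl K14-Cre (log2 fold change -0.35, SE 0.09, adjusted p = 0.0275). Sdhb, the iron-sulfur subunit, had 30.0 and 29.2 against 21.4 and 21.7 (-0.44, SE 0.08, adjusted p = 0.0107). For both genes each fl/fl K14-Cre library lay below each ctl library, which held for 55.3% of all tested genes. The anchor subunit Sdhc had 11.6 and 13.7 against 10.9 and 9.84 (-0.26, SE 0.12, adjusted p = 0.123), and the anchor subunit Sdhd had 10.6 and 11.9 against 10.9 and 11.1 (-0.02, SE 0.10, adjusted p = 0.87). The ratio of Sdhb to Sdhd was 2.84 and 2.46 in ctl and 1.96 and 1.95 in fl/fl K14-Cre. Under median scaling Sdha and Sdhb kept negative values (-0.14 and -0.24) and were not called. Of 4 assembly factors, Sdhaf4 was called lower (-0.50, SE 0.14, adjusted p = 0.0358), and Sdhaf3 was closest to 0 (-0.10, adjusted p = 0.593).

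Complex III passes electrons from quinol to cytochrome c. It had 1 of 9 subunits called lower and none higher, and its median log2 fold change, -0.11, was above that of all tested genes. Uqcrc1, a core protein and its most abundant transcript, had 113.5 and 114 FPKM in ctl and 108 and 109.8 in fl/fl K14-Cre (-0.06, SE 0.08, adjusted p = 0.54). Uqcrfs1, the Rieske iron-sulfur protein, had 36.5 and 34.7 against 34.1 and 32.2 (-0.10, SE 0.08, adjusted p = 0.378). Cyc1, cytochrome c1, had 35.5 and 37.1 against 32.6 and 31.8 (-0.17, SE 0.08, adjusted p = 0.157). These 3 lay below ctl in both libraries, as did 55.3% of all tested genes, but by less than the test could call. Median scaling put all 3 above 0. Uqcrh, the hinge protein that docks cytochrome c, was the member called lower, from 31.4 and 30.7 to 22.8 and 24.7 (-0.37, SE 0.09, adjusted p = 0.0211). Uqcrb had a lower value still but with wider spread, at 33.0 and 36.9 against 29.5 and 23.2. It was not called (-0.40, SE 0.13, adjusted p = 0.0606). With replicate numbers as a block its adjusted p was 0.0499, but those numbers do not pair the pups. Uqcrq was at the other end and overlapped, at 35.5 and 34.8 against 37.5 and 34.5 (0.03, SE 0.09, adjusted p = 0.788). Of 6 assembly factors 3 were called lower and none higher, also at an unadjusted p. Bcs1l, the chaperone that inserts the Rieske protein, had 6.78 and 5.93 against 3.51 and 2.39 (-0.91, SE 0.17, adjusted p = 0.0101), and Uqcc2 was not called (-0.06, adjusted p = 0.621). The somatic cytochrome c gene, Cycs, had 3.93 and 3.79 against 3.79 and 3.61 (-0.05, SE 0.11, adjusted p = 0.755).

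Complex IV, cytochrome c oxidase, reduces oxygen. Its nuclear subunits surround a catalytic core made from mitochondrial DNA, and several exist as paralogues. Of 11 subunits 3 were called lower and 1 higher, beside a background of 25.4% called lower and 8.99% called higher. Cox8a, the most abundant, had 100.3 and 105 FPKM in ctl and 89.2 and 88.5 in fl/fl K14-Cre (-0.21, SE 0.08, adjusted p = 0.0847). Cox4i1, Cox5a, Cox5b and Cox6a1 lay between -0.24 and -0.28 and none was called (adjusted p from 0.0626 to 0.102). In each of the 4 the ctl libraries were the higher pair, as in 55.3% of all tested genes. Cox4i1, a regulatory subunit that binds nucleotides, had 93.2 and 95.4 against 76.2 and 82.9. Cox6b1 had 77.1 and 77.7 against 75.4 and 80.4, which overlapped (0.01, SE 0.08, adjusted p = 0.939). Cox7a2 fell from 42.4 and 46.2 to 29.1 and 30.4 (-0.56, SE 0.09, adjusted p = 0.00585), and Cox7b from 31.7 and 30.3 to 23.2 and 22.6 (-0.42, SE 0.08, adjusted p = 0.0129). Cox7c was the third called lower.

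Ndufa4, first assigned to complex I by its name and now placed in complex IV, was the member called against its complex. The gene lies on the minus strand at chr6:11900292-11907497 (GRCm38). It had 62.3 and 59.7 FPKM in ctl and 76.0 and 83.4 in fl/fl K14-Cre, with no overlap (log2 fold change 0.38, SE 0.09, adjusted p = 0.0203). Both fl/fl K14-Cre libraries lay above both ctl libraries for 18.2% of all tested genes. No exon of another gene overlaps it and it shares 0% of its 75-base stretches with another transcript. Its ratio to Cox4i1 within a library was 0.668 and 0.626 in ctl and 0.997 and 1.01 in fl/fl K14-Cre. Without Ndufa4 the complex IV sum was 606 and 610 against 499 and 524, a change of -15.8% in place of -11.6%. The call was lost without ctl replicate 1 (log2 fold change 0.41, adjusted p = 0.101), without ctl replicate 2 (0.35, adjusted p = 0.13) and without fl/fl K14-Cre replicate 2 (0.31, adjusted p = 0.0543), with the direction kept.

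The paralogue of Ndufa4, Ndufa4l2, is a known hypoxia target. It was the member with the most uneven replicates at a high level, at 123.6 and 80.0 FPKM in ctl and 70.2 and 103.7 in fl/fl K14-Cre (log2 fold change -0.22, SE 0.25, adjusted p = 0.513). The groups overlapped, and its exons overlap those of Shmt2 on the other strand. Another hypoxia-responsive gene, Higd1a of the complex IV assembly list, was uneven within fl/fl K14-Cre, at 13.1 and 10.4 against 17.0 and 39.0. It was not called (1.08, SE 0.35, adjusted p = 0.0568). Both of its fl/fl K14-Cre values lay above both ctl values, as in 18.2% of all tested genes. Cox4i2, the oxygen-regulated paralogue of Cox4i1, was at most 0.156 FPKM in any library.

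The remaining paralogues showed which isoforms this epidermis used. Cox6a1 had 69.9 and 70.5 FPKM in ctl while its striated muscle paralogue Cox6a2 was at most 0.415. Cox8a stood at about 100 FPKM while Cox8b was at most 0.433 and Cox8c was listed at 0 in all 4 libraries. Cox7b2 was at most 0.0412. Cox7a1, the muscle and brown fat form, had 0.411 and 0.276 in ctl and 0.881 and 0 in fl/fl K14-Cre, too low to compare. Cox7a2l, which takes part in joining complexes III and IV into supercomplexes, had 57.0 and 63.3 against 48.3 and 50.8 (-0.27, SE 0.09, adjusted p = 0.0596), and its ratio to Cox7a2 was 1.34 and 1.37 in ctl and 1.66 and 1.67 in fl/fl K14-Cre. Cox6b2, described mainly in testis, was low but measured, and fell from 4.26 and 3.19 to 1.83 and 1.59 (-0.80, SE 0.15, adjusted p = 0.0121).

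Of 21 tested complex IV assembly factors, 8 were called lower and 1, Sco2, a copper chaperone, higher (0.56). The background was 25.4% called lower and 8.99% called higher. Cox20 had the lowest value, from 3.89 and 4.55 to 2.24 and 2.04 (-0.73, SE 0.13, adjusted p = 0.00883).

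Complex V consists of the F1 head, in which Atp5a1 and Atp5b form the catalytic ring around the stalk subunit Atp5c1, a rotating c ring in the membrane, and a peripheral stalk that holds the head still. It had 11 of 17 subunit identifiers called lower, none higher, and a median log2 fold change of -0.34. The background was 25.4% called lower and 8.99% called higher. Under median scaling 2 of the 17 were called lower and none higher, beside a background of 11.9% and 13.9%. Atp5b was the most abundant member of all 5 complexes, at 284.7 and 300.5 FPKM in ctl and 244.6 and 248 in fl/fl K14-Cre (-0.25, SE 0.08, adjusted p = 0.0588). Atp5a1 had 193 and 209.9 against 157 and 163.5 (-0.33, SE 0.09, adjusted p = 0.0309), and Atp5c1 had 54.6 and 63.9 against 41.9 and 44.6 (-0.44, SE 0.10, adjusted p = 0.0217). Atp5d and Atp5e of the central stalk were called lower as well, so that 4 of the 5 F1 genes passed the test and the fifth, Atp5b, did not.

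The c ring is made of 1 protein encoded by 3 genes that differ in their import sequence. Atp5g1 fell from 68.9 and 63.6 to 37.6 and 47.7 (-0.63, SE 0.13, adjusted p = 0.0135), and Atp5g2 from 90.7 and 95.4 to 62.3 and 64.0 (-0.55, SE 0.08, adjusted p = 0.00446). Atp5g3 had 48.9 and 57.3 against 49.3 and 49.2, which overlapped (-0.10, SE 0.10, adjusted p = 0.438). As a share of the 3, Atp5g3 was 23.5% and 26.5% in ctl and 33.0% and 30.6% in fl/fl K14-Cre. The c ring sum was 208.5 and 216 against 149 and 161, a change of -27.0%. Atp5g2 shares 35.8% of its 75-base stretches with other transcripts, chiefly the pseudogene Gm10175, so its level is uncertain.

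In the membrane part, Atp5j2 (subunit f) had the lowest log2 fold change of complex V, from 19.7 and 19.9 to 12.1 and 12.6 (-0.64, SE 0.09, adjusted p = 0.00375). Atp5l and Atp5mpl were called lower, and Atp5k (subunit e) overlapped at 6.11 and 5.40 against 5.09 and 6.37 (-0.01, SE 0.14, adjusted p = 0.96). In the peripheral stalk Atp5h and Atp5j were called lower and Atp5f1 was not. The Atp5o row of high level had 75.7 and 95.4 against 84.9 and 70.0. A second Atp5o identifier, which overlaps Donson and shares 83.8% of its stretches, had 2.97 and 0 against 0 and 9.89, and its fitted value was 0.73 (SE 1.14, adjusted p = 0.638). The sums of both rows were 78.7 and 95.4 against 84.9 and 79.9 and overlapped. Atp5s was lower (-0.52, SE 0.12, adjusted p = 0.0218). Complex V genes under symbols outside the name rule were added after their values were seen: Usmg5, a membrane subunit, had 43.9 and 43.7 against 29.9 and 30.4 (-0.53, adjusted p = 0.00509), and Atpif1, the inhibitor of the F1 head, had 67.8 and 68.9 against 42.0 and 42.0 (-0.69, adjusted p = 0.00196). Of 4 assembly factors, Atpaf1 was called lower (-0.41, adjusted p = 0.0419) and Atpaf2 was not called (0.15, adjusted p = 0.411).

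**Figure D3:**
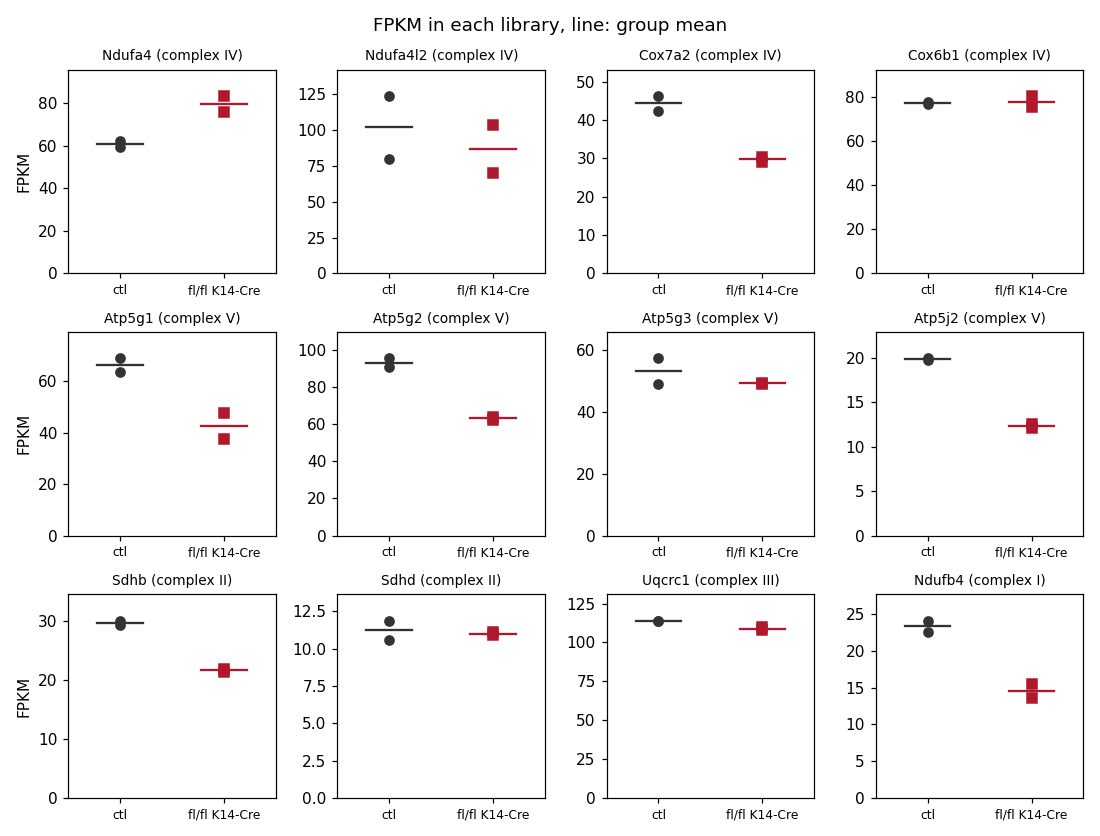
FPKM (y axis, starting at 0) of 12 members in each library, circles for Skiv2l ctl and squares for Skiv2l fl/fl K14-Cre, with the group mean as a line. Ndufa4 lies higher in both fl/fl K14-Cre libraries, Ndufa4l2, Cox6b1, Atp5g3 and Sdhd overlap, Uqcrc1 lies only slightly lower, and the other 6 lie well below ctl.

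The order of the members followed level and length only weakly. Across the 90 tested members, log2 fold change and log2 mean FPKM had a Spearman rho of 0.157, and log2 fold change and the length of the longest annotated transcript one of 0.0456; both are across genes of the same 4 libraries. Exons of another gene overlap 33 of the 99 members, and 20 share at least 10% of their 75-base stretches with another gene. In the 52 tested members with neither, 19 were called lower (36.5%) and 1 higher.

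**Figure D4:**
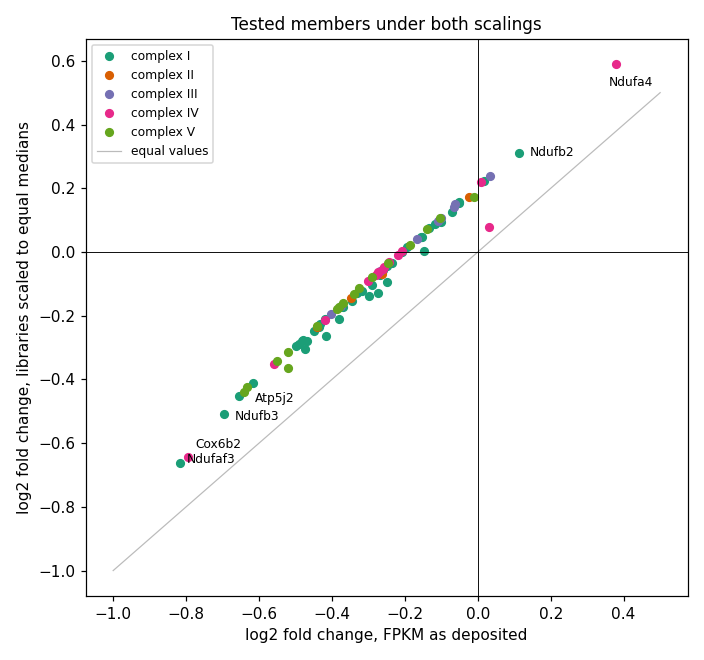
Log2 fold change of the tested members on FPKM as deposited (x axis) and with the libraries scaled to equal medians (y axis), colored by complex, with a line of equal values; the Atp5o identifier of low level is left out. The points shown lie above the line, and several, most of complex III among them, move from just below to just above 0, while Ndufaf3, Cox6b2 and Ndufb3 have the lowest values on both axes and Ndufa4 the highest.

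Genes around the respiratory chain were read from lists of the same kind. Of 24 tested genes of the citric acid cycle and pyruvate dehydrogenase, 7 were called lower and none higher (median -0.24). Fh1, fumarase, fell from 13.9 and 14.7 to 8.30 and 7.79 (-0.76, SE 0.10, adjusted p = 0.00302), and Dlst had 31.4 and 31.7 against 33.1 and 40.9 (0.22, adjusted p = 0.187). Genes with the symbols of large (Mrpl) and small (Mrps) mitochondrial ribosome proteins were listed by symbol only. Of 49 large ones 15 were called lower (median -0.25), and of 29 small ones 9 (median -0.24), with none higher in either. Mrpl58 and Mrps36 had their lowest values (-0.56, adjusted p = 0.0253, and -0.61, adjusted p = 0.00974), and Mrpl45 and Mrps18b the highest, 0.20 and 0.19, not called. The background for these 3 lists was 25.4% of all tested genes called lower and 8.99% called higher. At an unadjusted p under 0.05 none of these 3 lists had a higher gene, and 12, 20 and 14 genes were lower. Of all tested genes 11.9% were higher and 35.7% lower by that measure. Under median scaling the citric acid cycle list had 4 called lower and 1 higher. The large ribosome proteins had 0 in either direction, and the small ones had 1 in each. The background in that setting was 11.9% called lower and 13.9% called higher.

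Of 16 tested regulators of mitochondrial transcription and biogenesis, 1 was called lower: Tfb1m, an rRNA methyltransferase of the mitochondrial ribosome, from 4.89 and 3.88 to 2.17 and 1.97 (-0.80, SE 0.14, adjusted p = 0.00879). Pprc1 had the highest value (0.12, adjusted p = 0.499). Of 17 carriers and channels 4 were called lower and 1 higher. The background for this list and the regulators was 25.4% of all tested genes called lower and 8.99% called higher. Slc25a4, an ADP/ATP carrier, fell from 19.3 and 21.3 to 13.5 and 12.7 (-0.59, SE 0.10, adjusted p = 0.00704), while Hspa9, the import chaperone of the matrix, rose from 43.7 and 46.8 to 64.3 and 59.7 (0.44, SE 0.09, adjusted p = 0.0124).

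In the list of 8 genes of reactive oxygen defence, 2 were called higher and 1 lower. The background, here and for the next list, was 8.99% of all tested genes called higher and 25.4% called lower. Gpx1, a glutathione peroxidase, rose from 103.8 and 117 to 244.8 and 254.6 FPKM (1.17, SE 0.09, adjusted p = 0.000672) and Prdx3 rose by 0.42 on the log2 scale, while catalase, Cat, a peroxisomal enzyme, fell from 69.3 and 76.3 to 26.7 and 21.7 (-1.56, SE 0.12, adjusted p = 0.000632). Of 15 genes of mitochondrial quality and dynamics, 4 were called lower and 1 higher. Fundc1, a mitophagy receptor, had the lowest value (-0.83, SE 0.12, adjusted p = 0.00432). The receptor Bnip3l was the gene called higher (0.52), and Bnip3 had the highest value but was uneven, at 9.15 and 7.45 against 8.07 and 23.7 (0.69, SE 0.43, adjusted p = 0.244).

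All 13 mitochondrially encoded subunits were listed at 0 in all 4 libraries, as were the other genes of the mitochondrial chromosome, 37 in all. Genes this abundant in any tissue cannot be read from such a value, so the nuclear subunits could not be set beside their mitochondrial partners here.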

How the data were processed

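Total RNA of P0 mouse epidermis was sequenced in 4 libraries (2 Skiv2l ctl, 2 Skiv2l fl/fl K14-Cre). The authors ran their institution's Astrocyte RNA-seq workflow and deposited a gene table for each library, which holds FPKM, TPM and read coverage. The labels name the build GRCm38; the aligner, its version and the read layout are not given in the sources used here. The deposited FPKM were the main values. The deposited TPM served as an alternative, and the ratio of the deposited coverage signal to FPKM gave the aligned bases per library (5.843 to 6.274 gigabases). No counts are in these tables, so no counting interval was computed.

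Rows were summed per gene identifier (13 to 16 rows per table repeated an identifier). Genes annotated as protein-coding in GENCODE M21 with an FPKM above 0.5 in at least 1 library were tested, 13609 in all, following the study's selection. limma 3.58.1 in R 4.3.3 was fitted to log2(FPKM + 1) with eBayes and a mean-variance trend; its two-sided p-values were adjusted by Benjamini-Hochberg across the 13609 genes and called under 0.05. Fold changes on this scale understate those of low genes. The replicates are separate pups, and the p-values rest on the spread of 2 against 2. The script was tested on simulated data. Python 3 scripts computed sums, ratios, shared 75-base stretches and exon overlaps from the GENCODE M21 transcripts, and motif letters from RefSeq promoters.

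The members, complexes and gene lists were chosen with earlier results of these data known. Genes were named by rule: members called against most of their complex, the 2 highest and 2 lowest log2 fold changes and the highest level per complex, a set of core subunits, paralogues, and the highest and lowest of each list. The values of 1 core subunit are not reported here; it counts in the totals. Genes named beyond the rule were chosen after their values were seen. Alternatives were a pseudocount of 0.1, an FPKM above 1 in at least 2 libraries, no filter beyond an FPKM above 0, TPM, median scaling, quantile normalization, a replicate block, no trend, all gene types, and leaving out each library. Same-numbered libraries of the 2 genotypes did not deviate together (r = -0.077 across genes), so the numbers were not taken as pairs.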

Additional observations from a re-analysis of the deposited data

How the results depend on the processing

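Ndufa4 was called higher under each of the 9 alternatives that kept all 4 libraries. Without 1 library, the members called higher numbered 0 to 1, with 0 when either ctl replicate or fl/fl K14-Cre replicate 2 was left out. The 36 members called lower became 7 under median scaling and 23 under quantile normalization, and 1 to 31 without 1 library: 3 without ctl replicate 1, 1 without ctl replicate 2, and 30 and 31 without either fl/fl K14-Cre replicate. The remaining alternatives gave 27 (of 94 tested, with no filter beyond an FPKM above 0) to 51 (of 90, on TPM). Over all tested genes the counts called lower in those 2 fits were 2510 of 18194 and 4151 of 13609. They were 3455 of 13609 in the main fit, 1623 under median scaling and 1917 under quantile normalization. The median log2 fold change of the members, -0.27, was -0.33 on TPM, -0.074 under median scaling, -0.30 with a pseudocount of 0.1, -0.20 under quantile normalization and -0.31 to -0.28 without 1 library. With a replicate block it stayed -0.27, with 1 member higher and 37 lower, 35 of them among the 36; the numbers do not pair the pups (r = -0.077). The summed level per complex changed under median scaling by -5.80% (I), -7.90% (II), 5.11% (III), 2.53% (IV) and -7.38% (V), and on TPM by -12.3% in complex III. Some named members that were called in neither direction changed sign. Under median scaling the log2 fold change was 0.11 for Atp5g3, 0.17 for Atp5k, 0.0042 for Cox8a, 0.041 for Cyc1, 0.048 for Ndufs1, 0.17 for Sdhd, 0.15 for Uqcrc1 and 0.11 for Uqcrfs1. Under quantile normalization it was 0.19 for Atp5k, -0.013 for Cox6b1 and 0.14 for Sdhd. On TPM it was -0.039 for Cox6b1, -0.079 for Cox7a1, -0.029 for Ndufv1 and -0.015 for Uqcrq, and with a pseudocount of 0.1 it was -0.48 for Cox7a1. Without 1 library the range was -0.22 to 0.0084 for Atp5g3, -0.15 to 0.13 for Atp5k, -0.99 to 2.45 for the Atp5o identifier of low level, -0.036 to 0.054 for Cox6b1, -0.42 to 0.49 for Cox7a1, -0.53 to 0.091 for Ndufa4l2, -0.017 to 0.052 for Ndufv1, -0.10 to 0.053 for Sdhd and -0.026 to 0.090 for Uqcrq. A pup left alone in its group was assumed to vary like the other 2. The cause of these changes was not tested. The tables hold no counts, so the depth behind a single value is unknown, and 2 pups per genotype limit what a change of this size can show.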
